A study of Mus musculus with 17 samples.

Results

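The forkhead (Fox) family is a set of transcription factors that share a winged-helix DNA-binding domain. Its members here were the protein-coding genes whose symbol is Fox, a class letter from a to s and a number, which gave 44 of the 54532 genes of the expression table. They were followed in mouse embryonic stem cells of the R1 line, either wild-type (WT) or knocked out for *Usb1* (KO), which encodes an enzyme that trims and modifies the 3′ end of U6 snRNA. The day 0 cells were under self-renewal without retinoic acid (RA), and the others received RA, an inducer of differentiation, for 1 or 3 days. WT day 0 had 2 libraries and each of the other 5 groups (WT day 1, WT day 3, KO day 0, KO day 1, KO day 3) had 3, which makes 17 in all. The KO libraries all come from a single CRISPR/Cas9 line whose mutant mRNA is frameshifted, so a difference between the genotypes cannot be told apart from a difference between clones. The replicates were described as independent, and the p-values measure the spread between these libraries.

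Forkhead proteins bind DNA through a recognition helix that lies in the major groove, and they are grouped into lettered classes by the sequence of this domain. FoxA proteins open chromatin ahead of other factors in the endoderm, *Foxd3* is needed to keep the epiblast and embryonic stem cells undifferentiated, and Foxh1 brings Smad proteins to the targets of Nodal signalling. Others act in mesoderm and mesenchyme (Foxc, Foxf), in the nervous system (*Foxn4*), in the pharyngeal region and placodes (*Foxi3*), downstream of insulin and stress signals (Foxo) or in the G2 and M phases of the cell cycle (*Foxm1*).

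Levels are given as TPM, in which the reads of a gene are divided by its length and then by the library's total, as the authors deposited them, and differences on the scale log2(TPM + 1), which understates the change of a gene with a low level. A gene was tested if it reached a TPM of 1 in at least 2 libraries, and it was called when its adjusted p from limma was below 0.05 with at least a 2-fold change. Whole reads could be recovered from the TPM values and came to between 15398742 and 17290736 on genes per library. *Usb1* lay between 14.7 and 21.4 TPM in the 9 KO libraries and between 32.0 and 56.9 TPM in the 8 WT libraries, and the Y-linked *Eif2s3y* and *Ddx3y* were listed at 0 in all 9 KO libraries and not in WT. WT day 0 replicate 1 stood apart, with 239 genes of a single read against 1352 in the other WT day 0 library, and KO day 3 replicate 1 had 1223. The 14 libraries of the other groups and replicates had 2148 to 2466 such genes. Where a forkhead result rests on WT day 0 replicate 1 it is given with and without it.

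The part of the coding sequence that makes the recognition helix was found in 42 of the 44 genes, all except *Foxr1* and *Foxr2*. It is shown for the genes on which the results turn, as a part of the DNA-binding domain that the family shares. Each line is a coding stretch of 30 bases, 5′ to 3′ on the coding strand, with capitals at the bases that differ from *Foxa2*.
Foxa2: aactccatccgccactctctctccttcaac
Foxa1: aactccatccgccactcGctGtccttcaac
Foxd3: aacAGcatccgccacAACctGtcGCtcaac
Foxh1: GactccatccgccacAACctTtcctCTaaT
Foxn4: aactccGtGAgGcacAACctGtccCtGaac
Foxi3: aactccatccgccacAACctAtcACtcaac
Foxq1: aactccGtGcgccacAACctctcGCtcaac
Foxf1: aactccGtGcgccacAACctGtcGCtcaac
Foxc2: aacAGcatccgccacAACctGtcACtcaaT
Foxp4: aaTGccGtGcgccacAACctcAGcCtGCac
Against *Foxa2* the other genes differed at 2 to 15 of the 30 bases, with a median of 8. *Foxa1* was the nearest, at 2 bases, and *Foxp1* and *Foxp2* were the farthest, at 15. *Foxd3*, *Foxd4* and *Foxl1* had the same 30 bases, as did *Foxf2* and *Foxq1*, and *Foxe1* and *Foxe3*. On GRCm38 the *Foxa2* stretch is at chr2:148044252-148044281 on the minus strand, that of *Foxd3* at chr4:99657153-99657182 and that of *Foxq1* at chr13:31559397-31559426, both on the plus strand, and each lies in a single coding exon.

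Of the 44 genes, 34 passed the filter and 10 did not. Of these, *Foxb1*, *Foxd4*, *Foxe3*, *Foxi1*, *Foxi2*, *Foxl1*, *Foxn1*, *Foxp2* and *Foxs1* stayed at or below 0.663 TPM in every library. They include factors of the lens (*Foxe3*) and the thymic epithelium (*Foxn1*). *Foxi1* was above 0 in a single library. Over the 12 comparisons fitted, 25 of the 34 tested genes were called at least in 1, and 9 were called in none: *Foxa3*, *Foxj3*, *Foxk2*, *Foxm1*, *Foxn2*, *Foxo1*, *Foxo3*, *Foxo4* and *Foxp3*. The share of all genes called at least in 1 of the 12 was not computed, so this count is a description and sets the family apart from nothing.

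**Figure D1:**
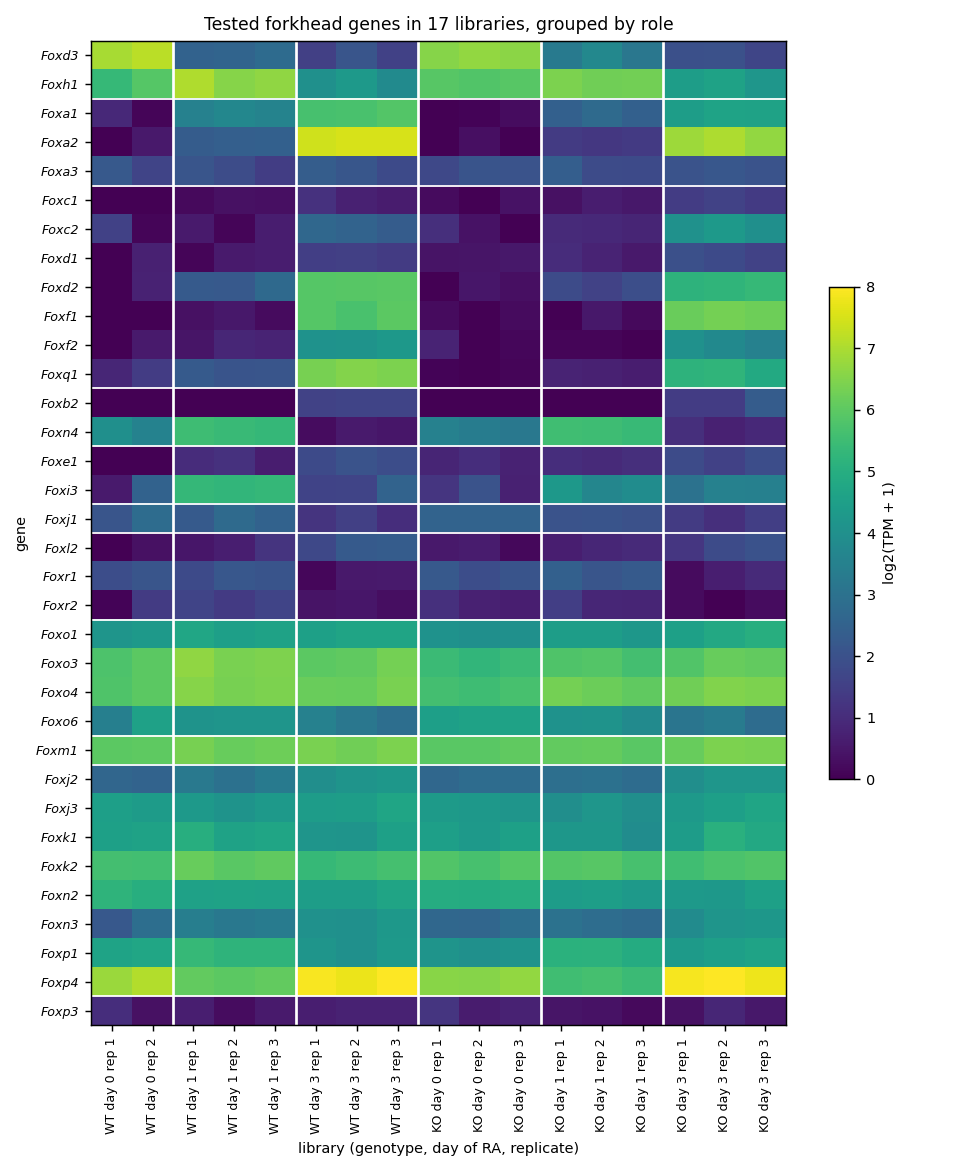
Heat map of the 34 tested forkhead genes (rows, grouped by role with white lines between roles) in the 17 libraries (columns, grouped by genotype and day); colour gives log2(TPM + 1) from 0 to 8. *Foxd3* is bright at day 0 alone, *Foxn4* and *Foxi3* at day 1, *Foxa2*, *Foxq1*, *Foxd2* and *Foxf1* at day 3, while the O class and *Foxm1* stay lit throughout.

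The summed level of the family rose by day 3 in both genotypes. In WT cells it averaged 710.4 ± 68.2 TPM (SD, n = 2) at day 0, 781 ± 59.1 (n = 3) at day 1 and 1145 ± 56.2 (n = 3) at day 3, and in KO cells 621 ± 18.0, 598 ± 41.1 and 1037 ± 68.0 (n = 3 each). The 2 genes for the early embryo, *Foxd3* and *Foxh1*, made up 25.7% of the family's TPM in WT at day 0, 14.4% at day 1 and 1.59% at day 3. Over the same days the 3 FoxA genes went from 0.521% to 2.31% and 20.5%.

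**Figure D2:**
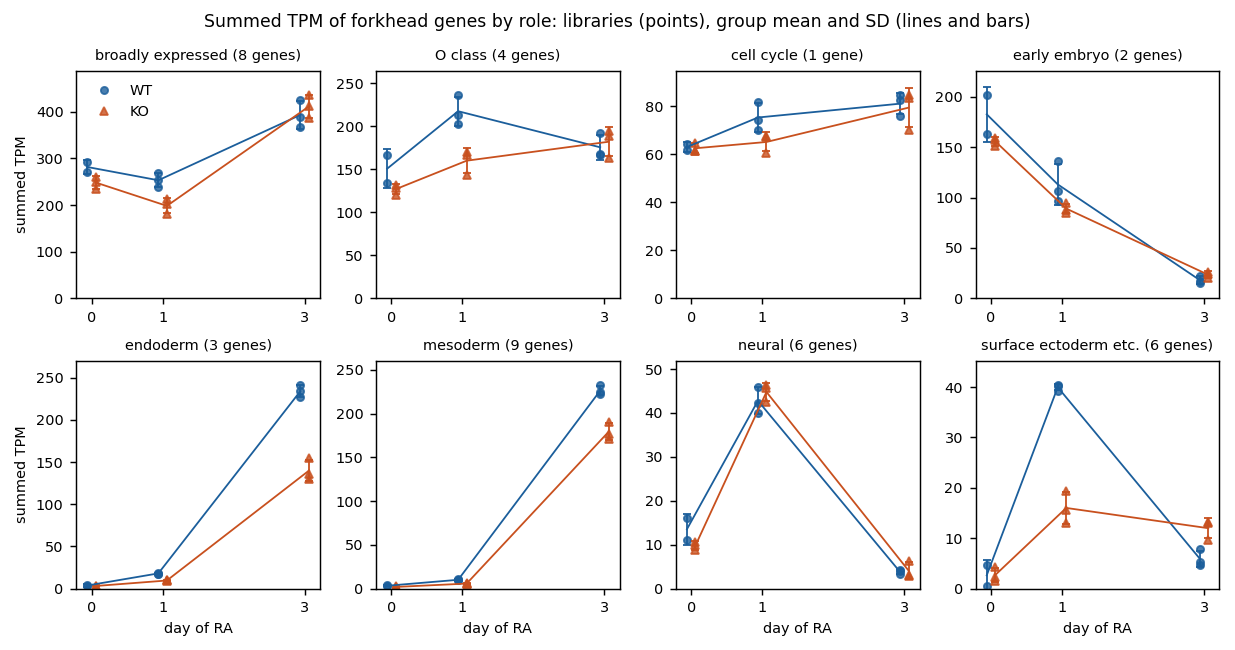
Summed TPM (vertical axes, each from 0) against day of RA for 8 role groups of forkhead genes; points are libraries (circles WT, triangles KO), and lines and bars are the group mean and SD. The early-embryo sum falls at each step, the neural and surface ectoderm sums peak at day 1, and the endoderm and mesoderm sums rise at day 3, where WT libraries lie above KO libraries.

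The order of levels within the family changed with each day. At day 0 *Foxd3* and *Foxp4*, a broadly expressed repressor, stood first in both genotypes and overlapped each other in level. At day 1 *Foxh1* was first, at 108 ± 20.9 TPM in WT and 79.5 ± 5.37 TPM in KO (SD, n = 3 each), and it overlapped *Foxo3* in WT and *Foxo4* in KO. At day 3 *Foxp4* was first and *Foxa2* second in both genotypes, with no overlap between them. *Foxq1* was next in WT at 85.4 ± 4.85 TPM, but in KO it came after *Foxo4*, *Foxm1*, *Foxf1*, *Foxo3*, *Foxk2* and *Foxd2* at 33.4 ± 4.65 TPM. TPM is per transcript length, so these orders compare levels between genes.

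Between the days of RA, a larger share of the tested forkhead genes than of all tested genes was called at each step. From day 0 to day 1, 8 of the 34 were called in WT (7 higher, 1 lower), against 13.9% of all 21871 genes tested (9.99% higher, 3.88% lower), and 7 in KO (5 higher, 2 lower), against 6.95% (4.07% and 2.87%). For day 3 against day 0, 18 were called in WT (13 higher, 5 lower), against 25.8% of all genes (16.1% and 9.68%), and 21 in KO (15 higher, 6 lower), against 21.9% (13.8% and 8.04%). Day 3 against day 1, which uses no day 0 library, gave 18 in WT (11 higher, 7 lower), against 15.2% (7.7% and 7.54%), and 16 in KO (12 higher, 4 lower), against 15.3% (9.6% and 5.73%). Both steps from day 0 share the day 0 libraries. The 34 genes passed the filter partly through the groups in which they are high, so these shares are descriptions. In WT from day 0 to day 3 the median difference was 0.37 over the 34 genes and 0.10 over all genes tested, and in KO 0.78 and 0.03. Between day 0 and day 3, 17 genes were called in both genotypes, 12 of them higher and 5 lower. The share of all genes called in both genotypes was not computed, so this overlap is a description too.

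*Foxd3* had the largest fall of the 34 genes from day 0 to day 3 in both genotypes. It measured 124 and 144 TPM in the WT day 0 libraries, 4.73, 4.93 and 5.88 at day 1, and 1.86, 3.27 and 1.90 at day 3. The KO libraries gave 91.7, 104 and 97.4 TPM at day 0, 8.67, 12.3 and 7.93 at day 1, and 2.83, 2.94 and 2.20 at day 3. The 3 days do not overlap in either genotype, and most of the loss had occurred by day 1. From day 0 to day 1 the log2 difference was −4.45 (SE 0.19, adjusted p = 5.8e-10) in WT and −3.24 (SE 0.17, adjusted p = 5.38e-09) in KO. *Foxd3* is a gene of a single exon on chromosome 4, positions 99656299 to 99658622 on the plus strand of GRCm38, and 89 of its bases also belong to *Gm23366*.

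*Foxh1*, the Smad partner in Nodal signalling, rose before it fell. It measured 40.0 and 58.2 TPM at day 0, 132, 91.9 and 100.4 at day 1 and 15.2, 19.0 and 13.1 at day 3 in WT. In KO the values were 59.4, 55.2 and 59.8, then 85.6, 75.7 and 77.1, then 21, 23.5 and 17.6 TPM. All day 1 values lie above, and all day 3 values below, every day 0 value in both genotypes. The rise was called in WT (log2 difference 1.13, SE 0.18, adjusted p = 0.000209) and not in KO (0.44). Without WT day 0 replicate 1 the WT rise was 0.86 and below 2-fold. The fall from day 1 to day 3 was called in both, at −2.70 (SE 0.16) in WT and −1.90 (SE 0.16) in KO.

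*Foxn4* and *Foxi3* were highest at day 1. *Foxn4*, which acts in retinal and spinal progenitors, measured 14.8 and 10.8 TPM at day 0, 45.0, 41.7 and 39.2 at day 1 and 0.192, 0.502 and 0.413 at day 3 in WT, and 10.3, 9.19 and 8.24, then 45.4, 45.0 and 41.2, then 1.09, 0.675 and 0.883 TPM in KO. The genotypes overlap at day 1, and all 3 days are separate within each genotype. The rise to day 1 was 1.65 (SE 0.15, adjusted p = 1.43e-06) in WT and 2.13 (SE 0.14, adjusted p = 4.27e-08) in KO on the log2 scale, and the fall from day 1 to day 3 was −4.98 (SE 0.14) and −4.58 (SE 0.14).

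*Foxi3*, a gene of the pharyngeal arches and placodes, had 0.49 and 4.76 TPM in WT at day 0, 38.9, 37.8 and 38.9 at day 1, and 2.02, 2.14 and 4.89 at day 3. The KO values were 1.35, 3.10 and 0.678, then 18.2, 11.9 and 13.9, then 7.11, 10.5 and 10.1 TPM. WT thus returned near its day 0 range by day 3, whereas no KO day 3 library was as low as any KO day 0 library. *Foxi3* rose from day 0 to day 1 in WT (3.75, SE 0.48, adjusted p = 2.5e-05) and in KO (2.61, SE 0.43, adjusted p = 0.000329). The WT rise was 2.78 without WT day 0 replicate 1 and 4.73 without WT day 0 replicate 2, and it was called in both cases. From day 1 to day 3 it fell in WT (−3.37, SE 0.43, adjusted p = 1.28e-05) and gave −0.61 in KO, which did not pass.

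**Figure D3:**
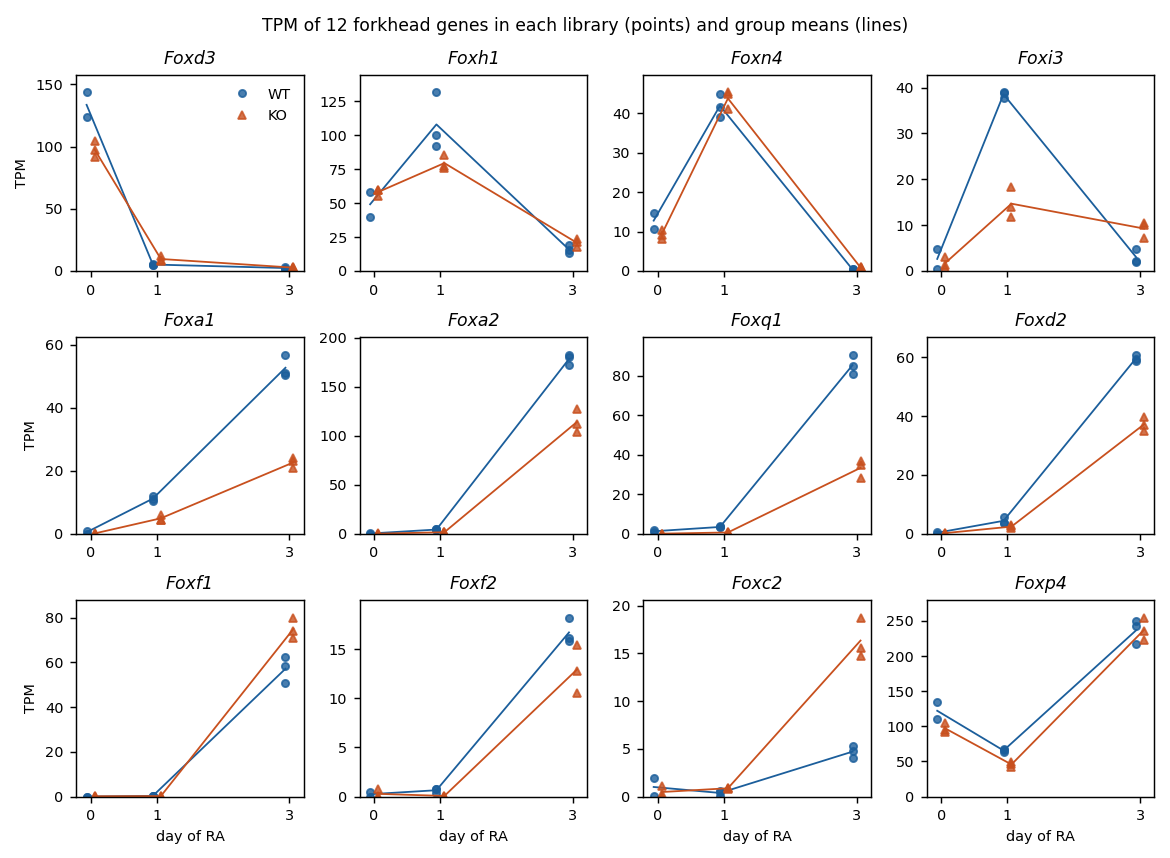
TPM (vertical axes, each from 0) against day of RA for 12 forkhead genes; circles are WT and triangles KO libraries, and lines join group means. The upper row holds genes that fall or peak at day 1, and the lower rows genes that are highest at day 3, with KO below WT for *Foxa1*, *Foxa2*, *Foxq1* and *Foxd2* and above WT for *Foxc2*. The *Foxd2* difference at day 3 did not pass the adjusted p.

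The FoxA pair rose through both intervals. *Foxa2*, a pioneer factor of the endoderm, measured 0 and 0.476 TPM at day 0, 3.99, 4.39 and 4.46 at day 1 and 172, 180.4 and 182 at day 3 in WT, and 0, 0.265 and 0, then 1.61, 1.45 and 1.54, then 112, 127 and 103 TPM in KO. *Foxa1*, its close relative, measured 0.881 and 0.0679 TPM, then 10.5, 12 and 10.9, then 50.4, 50.9 and 56.6 in WT, and 0, 0.0629 and 0.196, then 4.46, 5.79 and 4.44, then 20.8, 23.9 and 23.2 TPM in KO. No 2 days overlap for either gene in either genotype, and *Foxa1* led at day 1 while *Foxa2* led at day 3. Over the 3 days *Foxa2* rose by 7.20 (SE 0.16, adjusted p = 9.7e-14) in WT and 6.73 (SE 0.14, adjusted p = 5.17e-14) in KO, and *Foxa1* by 5.24 (SE 0.19) and 4.44 (SE 0.17). *Foxa3*, the FoxA gene of the mature liver and gut, was between 1.73 and 4.27 TPM in all 17 libraries and was called in no comparison.

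Among the 9 genes for mesoderm and mesenchyme, 7 passed the filter. At day 3 against day 0, 6 of them rose in WT and all 7 in KO, while 16.1% and 13.8% of all genes tested were called higher. *Foxc1*, *Foxd1*, *Foxf1* and *Foxf2* passed the filter only through day 3 libraries, where they are high, so the count is a description. *Foxf1*, needed in lateral and visceral mesoderm, had 0 reads in both WT day 0 libraries, at most 0.44 TPM at day 1, and 58.3, 50.8 and 62.3 TPM at day 3. In KO it stayed at or below 0.42 TPM until day 1 and reached 70.8, 79.8 and 74.2 TPM at day 3. The rise came between day 1 and day 3, at 5.48 (SE 0.15, adjusted p = 1.87e-12) in WT and 6.01 (SE 0.15, adjusted p = 9e-13) in KO, and no fold is given against the group at 0. *Foxf2*, its paralog, rose over the same interval to 15.8, 16.1 and 18.2 TPM in WT and 15.4, 12.8 and 10.5 TPM in KO.

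*Foxq1*, grouped here with the mesenchymal genes and also known from epithelia, measured 0.821 and 1.68 TPM at day 0, 3.81, 3.24 and 3.27 at day 1 and 80.7, 90.4 and 85.0 at day 3 in WT. The KO libraries gave 0.0447, 0 and 0.0896 TPM, then 0.744, 0.67 and 0.555, then 35.0, 36.9 and 28.1. The days are separate in each genotype, and at each day every KO value is below every WT value. The WT rise from day 0 to day 1 was 1.01 (SE 0.17) and called, but 0.73 and below 2-fold without WT day 0 replicate 1. From day 1 to day 3 the rise was 4.28 (SE 0.15, adjusted p = 1.74e-11) in WT and 4.37 (SE 0.15, adjusted p = 1.42e-11) in KO. Of its 4843 exonic bases, 3200 are shared with *A530084C06Rik* on the other strand, and since the strand setting of the counting was not given in the sources used here, reads of the pair cannot be told apart. That neighbour was listed at 0 in all 17 libraries.

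*Foxd2* rose in both intervals. It had 0 and 0.697 TPM, then 3.82, 3.69 and 5.69, then 58.9, 59.5 and 60.8 in WT, and 0, 0.404 and 0.251, then 2.54, 1.95 and 2.81, then 35.1, 37.0 and 39.6 TPM in KO. *Foxd1*, a gene of renal stroma and the ventral forebrain, ended at 1.60 to 1.84 TPM in WT and 1.97 to 2.91 TPM in KO, and its WT difference from day 0 to day 3 of 1.09 was 0.72 without WT day 0 replicate 1. *Foxc2*, which acts in paraxial mesoderm and vessels, is described with the genotypes. *Foxc1*, its partner, ended at 1.22, 0.651 and 0.516 TPM in WT and 1.66, 1.99 and 1.57 TPM in KO, and was called in KO alone (1.24, SE 0.19, adjusted p = 5.4e-05; under equal medians 0.96).

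Several members of this kind sit beside each other in the genome. On chromosome 13 *Foxq1*, *Foxf2* and *Foxc1* follow each other with gaps of 64.8 kb and 175.2 kb, and on chromosome 8 *Foxf1*, *Foxc2* and *Foxl1* with gaps of 28.0 kb and 9.0 kb. Neighbours differed in level: at day 3 in WT, *Foxq1* averaged 85.4 TPM, *Foxf2* 16.7 TPM and *Foxc1* 0.796 TPM, and *Foxf1* averaged 57.1 TPM, *Foxc2* 4.71 TPM and *Foxl1* 0.0806 TPM. The 4 tested transcripts that lie beside or antisense to forkhead genes were called higher from day 0 to day 3 in both genotypes. Over these days 16.1% of all genes tested were called higher in WT and 13.8% in KO. Whether these transcripts move with the genes beside them was not tested. *Fendrr*, the long noncoding RNA beside *Foxf1*, went from at most 0.544 TPM at day 0 to 5.03 to 5.59 TPM in WT and 3.85 to 5.34 TPM in KO at day 3. *Foxd2os*, beside *Foxd2*, reached 23.5 to 26.1 TPM in WT and 15.6 to 19.1 TPM in KO at day 3. These ranges do not overlap, but the difference of −0.47 did not pass (adjusted p = 0.117), and at day 0 *Foxd2os* was higher in KO by 0.98, below 2-fold (adjusted p = 0.00444).

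Genes with low levels moved as well. *Foxb2*, a neural gene, was at 0 in all 11 libraries of days 0 and 1 and at 2.00, 2.09 and 2.14 TPM in WT and 1.66, 1.65 and 4.07 TPM in KO at day 3. *Foxl2*, known from the ovary, rose from at most 0.277 TPM to 2.32, 3.83 and 4.06 TPM in WT and from at most 0.514 TPM to 1.43, 2.52 and 3.07 TPM in KO. *Foxe1*, a thyroid gene, was at 0 in both WT day 0 libraries, 0.697 to 1.05 TPM in KO at day 0, and 2.47, 3.09 and 2.73 TPM in WT and 2.56, 1.95 and 2.73 TPM in KO at day 3. *Foxr1* fell from 2.74 and 3.35 TPM to at most 0.506 TPM in WT, and from 2.74 to 3.69 TPM to at most 0.929 TPM in KO. *Foxr2*, its relative on the X chromosome, was called only for the fall from day 1 to day 3 in WT (−1.16, SE 0.29, adjusted p = 0.00424), from 1.59 to 2.12 TPM to at most 0.395 TPM. *Foxj1*, the regulator of motile cilia, was at 3.35 and 6.03 TPM at day 0, 3.85, 5.75 and 4.70 at day 1 and 1.32, 1.85 and 1.06 at day 3 in WT.

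From day 0 to day 3, 2 of the 8 broadly expressed genes were called in WT and 3 in KO, all higher, and of the 4 O class genes 0 in WT and 1 in KO, lower, against the 25.8% and 21.9% of all genes given above. *Foxp4* measured 110.3 and 134 TPM, then 66.9, 62.7 and 67.0, then 242, 218 and 249.9 in WT, and 95.4, 91.5 and 104, then 45.8, 48.6 and 42.6, then 235, 254 and 223 TPM in KO. It dipped at day 1, was highest at day 3, and the genotypes overlap at day 3 alone. The rise from day 1 to day 3 was 1.83 (SE 0.08, adjusted p = 2.41e-10) in WT and 2.35 (SE 0.08, adjusted p = 1.6e-11) in KO. *Foxp1*, whose splicing is known to differ between stem and differentiated cells, went the other way, with 40.0, 36.0 and 36.2 TPM at day 1 and 16.8, 15.2 and 18.7 TPM at day 3 in WT (−1.10, SE 0.09, adjusted p = 1.73e-07), and 33.5, 34.3 and 29.6 TPM against 19.7, 21.9 and 24.0 TPM in KO (−0.55, below 2-fold). *Foxj2* and *Foxn3* rose from day 0 to day 3 in both genotypes, *Foxj2* by 1.51 and 1.35 and *Foxn3* by 1.57 and 1.35 (WT and KO, log2 scale).

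*Foxm1*, the driver of G2 and M phase genes, stayed between 60.5 and 84.6 TPM over all libraries, and *Foxk2* lay between 40.1 and 70.3 TPM. Among the O class, *Foxo1* lay between 14.9 and 31.4 TPM, *Foxo3* between 37.5 and 102 TPM and *Foxo4* between 44.9 and 93.3 TPM, and none of these 3 was called in any comparison. *Foxo6* fell from 21.7, 23.4 and 23.5 TPM to 7.70, 9.05 and 6.10 TPM in KO (−1.48, SE 0.23, adjusted p = 5.89e-05). In WT it measured 9.93 and 23.0 TPM at day 0 and 10.3, 8.0 and 6.48 TPM at day 3, a difference of −0.82 that became −1.39, and called, without WT day 0 replicate 1. The mRNA level says nothing of FoxO activity, which is largely set by phosphorylation and localisation of the protein.

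Between the genotypes, 5 forkhead genes were called on at least 1 day, *Foxq1* on all 3 days and *Foxa1* on days 1 and 3. At day 0 only *Foxq1* was called, lower in KO, which is 1 of 34 genes against 3.05% of all genes tested and 1.45% in that direction. At day 1, 4 of 34 were called, all lower in KO (*Foxa1*, *Foxa2*, *Foxi3*, *Foxq1*), against 2.22% of all genes and 1.76% in that direction. At day 3, 3 of 34 were called, *Foxa1* and *Foxq1* lower and *Foxc2* higher, against 1.29% of all genes (0.773% lower, 0.521% higher). The median difference over the 34 genes was −0.01, −0.23 and 0.01 at days 0, 1 and 3, and over all genes tested 0, −0.13 and 0. Each genotype group enters several of these comparisons and those between days.

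**Figure D4:**
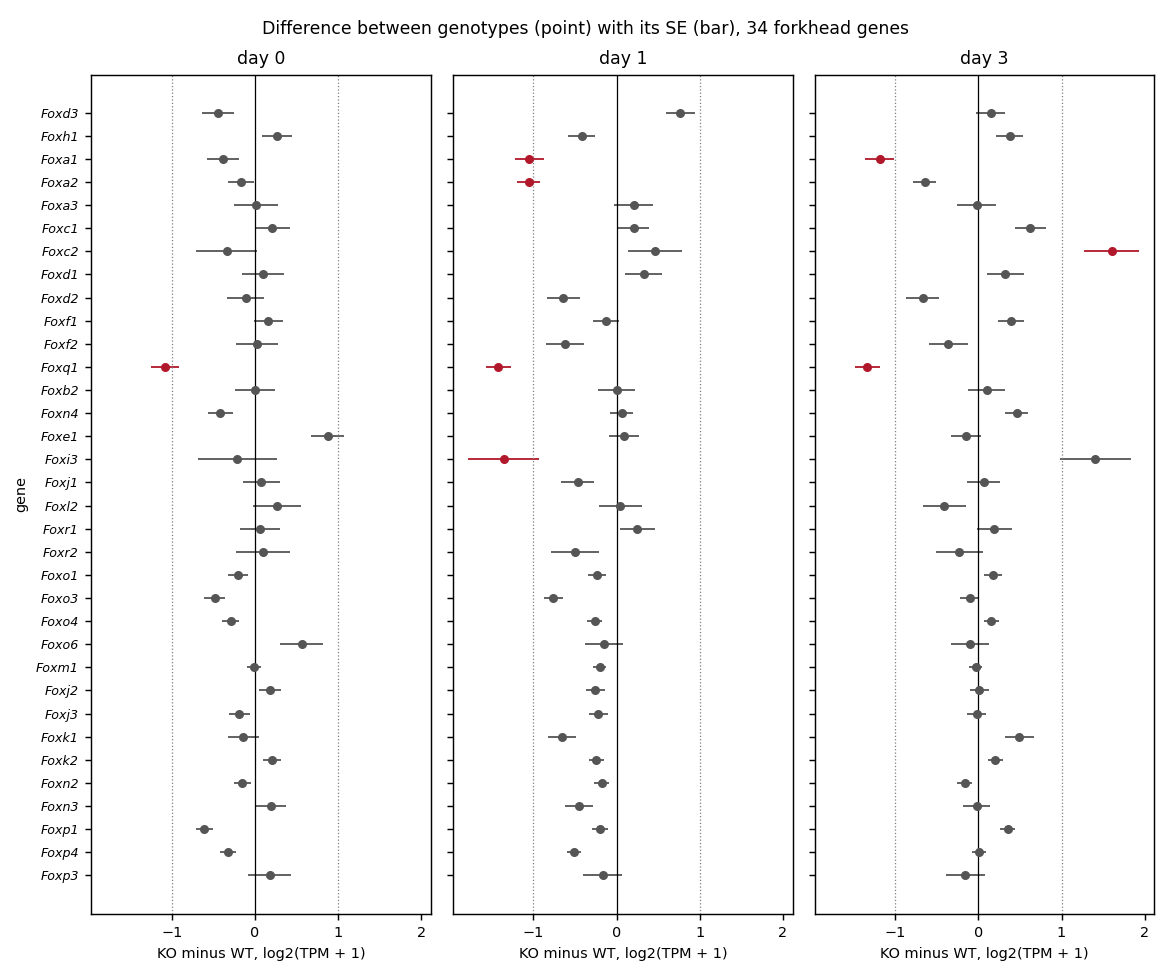
Difference between KO and WT on the log2(TPM + 1) scale (horizontal axes) for the 34 tested forkhead genes (rows) at days 0, 1 and 3; points are fitted differences, bars their SE, red marks called genes and dotted lines 2-fold. *Foxq1* lies left of −1 at all 3 days, *Foxa1* at days 1 and 3, and *Foxc2* lies right of 1 at day 3.

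*Foxq1* was the gene that differed at every day. The differences were −1.08 (SE 0.17, adjusted p = 0.0012) at day 0, −1.42 (SE 0.15, adjusted p = 2.37e-05) at day 1 and −1.34 (SE 0.15, adjusted p = 7.07e-05) at day 3. In reads, WT day 0 held 19 and 36 and KO day 0 held 1, 0 and 2, whereas WT day 3 held 1775 to 2072 and KO day 3 held 640 to 876. The day 0 call was lost with equal medians (−0.97), with a fit to the day 0 libraries alone (adjusted p = 0.0925) and without WT day 0 replicate 2 (−0.80), and the calls at days 1 and 3 were kept in every alternative.

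*Foxa1* was lower in KO at day 1 (−1.05, SE 0.17, adjusted p = 0.00105) and at day 3 (−1.18, SE 0.17, adjusted p = 0.000714). *Foxa2* was lower at day 1 (−1.06, SE 0.14, adjusted p = 0.000186) and, below 2-fold, at day 3 (−0.64, SE 0.14, adjusted p = 0.0121). All KO values of both genes are below all WT values at these days. The day 1 calls rest on a change close to 2-fold: with equal medians the differences were −0.83 for *Foxa1* and −0.84 for *Foxa2*, where the median of all genes as reported was −0.13, and with quantile normalization −0.84 and −0.89, all below 2-fold. With a pseudocount of 0.1 the day 1 differences were −1.18 for *Foxa1* (adjusted p = 0.127) and −1.42 for *Foxa2* (adjusted p = 0.0902). The *Foxa1* difference at day 3 was then −1.22 (adjusted p = 0.189), and none of these passed. *Foxd2* moved alongside, at −0.64 (SE 0.20, adjusted p = 0.0403) at day 1, and its day 3 difference did not pass the adjusted p.

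Markers of primitive and extraembryonic endoderm rose over the days of RA, as *Foxa1* and *Foxa2* did. From day 0 to day 3, 16.1% of all genes were called higher in WT and 13.8% in KO. All 8 of these markers (*Gata4*, *Gata6*, *Sox17*, *Sox7*, *Dab2*, *Pdgfra*, *Lamb1*, *Col4a1*) rose over these days in both genotypes. Their summed level at day 3 was 3513 to 3945 TPM in WT and 1587 to 1981 TPM in KO, at day 1 251.8 to 279 TPM and 95.9 to 112 TPM, and at day 0, before RA, 132 to 144 TPM and 75.6 to 79.2 TPM. At day 0 *Col4a1* (−1.17) was called lower in KO, while 1.45% of all genes were. *Gata6* (−0.75), *Dab2* (−0.93) and *Lamb1* (−0.41) passed the adjusted p below 2-fold at day 0. The other markers and the FoxA genes did not pass it at day 0. At day 3, 5 of the 8 were called lower in KO (*Gata4*, *Sox17*, *Dab2*, *Lamb1*, *Col4a1*), with a median of −1.12, while 0.773% of all genes were. *Gata6* (−0.79) and *Sox7* (−0.77) passed the adjusted p below 2-fold at day 3, and *Pdgfra* (0.03) did not pass. At day 1 *Gata6* (−1.71), *Sox7* (−2.38), *Dab2* (−1.22) and *Col4a1* (−1.32) were called lower, while 1.76% of all genes were. *Gata4* (−0.86), *Pdgfra* (−0.77) and *Lamb1* (−0.63) passed the adjusted p below 2-fold at day 1, and *Sox17* (−0.10) did not pass. Pluripotency markers moved between the genotypes as well. Of 8, *Esrrb* (1.09) was called higher in KO at day 1. *Zfp42* (0.91), *Prdm14* (0.67) and *Nanog* (0.52) passed the adjusted p in that direction at day 1, and *Tbx3* (−0.73) in the other. At day 3 *Nanog* (1.90), *Esrrb* (1.76) and *Prdm14* (1.44) were called higher, while 0.521% of all genes were. *Klf4* (−0.82) passed the adjusted p in the other direction at day 3. The sum of the pluripotency markers was 3148 to 3263 TPM in WT and 3813 to 3906 TPM in KO at day 1, and the day 3 sums are given below. In bulk libraries fewer cells of a type and less RNA per cell cannot be told apart, and the part of these markers in the forkhead differences was not tested.

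*Foxi3* was lower in KO at day 1 (−1.35, SE 0.43, adjusted p = 0.0421), where its WT values of 37.8 to 38.9 TPM stand apart from 11.9 to 18.2 TPM in KO. At day 3 the order was turned, with 2.02 to 4.89 TPM in WT and 7.11 to 10.5 TPM in KO, and the difference of 1.40 did not pass (SE 0.43, adjusted p = 0.0639). Without WT day 0 replicate 1, which enters the shared estimate of the spread, the day 3 difference was called (adjusted p = 0.0118). The day 1 call was lost when any single day 1 library was left out, with adjusted p from 0.0601 (without KO day 1 replicate 1) to 0.12 (without KO day 1 replicate 3).

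*Foxc2* went against the endodermal genes. It measured 1.92 and 0.0829 TPM at day 0, 0.484, 0.0779 and 0.566 at day 1 and 5.31, 4.81 and 4.0 at day 3 in WT. The KO libraries gave 1.11, 0.307 and 0 TPM, then 0.934, 0.893 and 0.775, then 15.6, 18.7 and 14.8. At day 3 the lowest KO library lies well above the highest WT library, and the difference was 1.60 (SE 0.33, adjusted p = 0.00761). With a pseudocount of 0.1 it was 1.78 and did not pass (adjusted p = 0.316). The WT rise from day 0 to day 3 was 1.68 and called, at 2.39 without WT day 0 replicate 1 and 0.96 without WT day 0 replicate 2. Its neighbours on chromosome 8 did not pass: *Foxf1* differed by 0.39 (SE 0.15) and *Foxl1* was not tested. Of 5 mesoderm markers tested, *Hand1* (1.08) and *Meox1* (1.72) were called higher in KO at day 3, as were 0.521% of all genes. *Kdr* (−0.55), *Tbx6* (−0.06) and *T* (0.00) did not pass. The mesoderm sum was 69.5 to 81.4 TPM in KO against 32.1 to 46.3 TPM in WT, and *T*, which defines nascent mesoderm, was at most 0.295 TPM in any day 3 library. *Hand1* is also a trophoblast marker, and the trophoblast sum at day 3 was 135 to 148 TPM in KO and 89.0 to 108 TPM in WT. The trophoblast markers *Cdx2* (−0.72) and *Gata3* (0.29) did not pass. Of 6 fibroblast markers 1, *Col3a1*, was called higher in KO, and 5 passed the adjusted p. Their part in the *Foxc2* difference was not tested.

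Other genes passed the adjusted p below 2-fold. At day 0 these were *Foxp1* (−0.61), *Foxo3* (−0.48) and *Foxp4* (−0.32), lower in KO, and *Foxe1* (0.87), higher in KO. At day 1 *Foxo3* (−0.76), *Foxk1* (−0.65), *Foxd2* and *Foxp4* (−0.51) were lower and *Foxd3* (0.77) was higher. At day 3 *Foxp1* (0.35) was higher. In all, 5 genes passed the adjusted p at day 0, 9 at day 1 and 5 at day 3, while 11.9%, 17.3% and 7.52% of all genes did.

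Whether the response to RA itself differed between the genotypes was tested by the difference of the responses. From day 0 to day 1 this was called for *Foxd3* alone (1.21, SE 0.26, adjusted p = 0.0297), against 0.86% of all genes, as *Foxd3* fell less in KO. From day 0 to day 3 it was called for *Foxc2* (1.95, SE 0.49, adjusted p = 0.0324) and *Foxe1* (−1.02, SE 0.27, adjusted p = 0.0377), against 2.42%. From day 1 to day 3 it was called for *Foxi3* (2.76, SE 0.60, adjusted p = 0.0132) and *Foxk1* (1.15, SE 0.24, adjusted p = 0.00968), against 2.25%. The *Foxi3* call was lost with a pseudocount of 0.1 (adjusted p = 0.0556), and the *Foxk1* call with equal medians (0.95) and without KO day 3 replicate 2 (1.00), both just below 2-fold. *Foxk1*, a regulator of metabolism and autophagy, measured 31.6, 23.6 and 24.8 TPM at day 1 and 17.1, 16.6 and 22.2 TPM at day 3 in WT. In KO it measured 17.9, 17.8 and 13.9 TPM and then 20.2, 32.8 and 27.7 TPM. Its level thus fell in WT and rose in KO, but neither the fall nor the rise was called by itself. The responses of *Foxq1*, *Foxa1* and *Foxa2* to RA from day 0 to day 3 did not pass this test, with differences of −0.26 (SE 0.23), −0.80 (SE 0.26) and −0.48 (SE 0.21).

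The tests that use day 0 depend on WT day 0 replicate 1. None of the 3 calls was kept with every other library left out in turn either: adjusted p reached 0.0742 for *Foxd3* (without WT day 1 replicate 1), 0.0723 for *Foxc2* (without KO day 0 replicate 3) and 0.0859 for *Foxe1* (without WT day 3 replicate 2). Without WT day 0 replicate 1 the *Foxd3* difference was 1.32 with an adjusted p of 0.0597, *Foxc2* was 1.23 (adjusted p = 0.136) and *Foxe1* was −1.02 (adjusted p = 0.0858). *Foxa1* then passed at −1.07 (adjusted p = 0.0234) from day 0 to day 1 and −1.20 (adjusted p = 0.00571) from day 0 to day 3, and *Foxi3* at 2.59 (adjusted p = 0.0183) from day 0 to day 3. *Foxe1* was at 0 reads in both WT day 0 libraries and at 9 to 14 reads in KO at day 0.

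The known partners and targets of each class were followed as lists. Of the FoxA list (which includes *Gata4*, *Gata6*, *Sox17*, *Sox7*, *Hnf4a*, *Ttr*, *Apoa1*, *Afp*, *Cer1*, *Shh*), 10 of 11 were tested, and 9 rose in WT and 8 in KO from day 0 to day 3, with medians of 4.47 and 3.64, while 16.1% and 13.8% of all genes were called higher. At day 3, 4 were called lower in KO (*Gata4*, *Sox17*, *Hnf4a*, *Ttr*), with a median of −0.84, while 0.773% of all genes were. *Ttr*, a FoxA target of the liver and visceral endoderm, had 67.2 to 81.7 TPM in WT and 24.8 to 34.2 TPM in KO at day 3. *Afp*, another, lay at 3.37 to 3.79 TPM and 3.79 to 4.26 TPM. *Gata4*, *Gata6*, *Sox17* and *Sox7* are also among the endoderm markers above.

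The Nodal list of *Foxh1* (which includes *Nodal*, *Lefty1*, *Lefty2*, *Smad2*, *Smad3*, *Smad4*, *Gsc*, *Tdgf1*, *Acvr1b*, *Acvr2b*, *Eomes*, *Mixl1*) was tested in full. From day 0 to day 3, 2 of 13 rose and 4 fell in WT, and 2 rose and 3 fell in KO, with *Nodal*, *Lefty1*, *Lefty2* and *Tdgf1* lower in WT and *Smad3* higher in both. The share that rose is near the 16.1% and 13.8% of all genes called higher, and 9.68% and 8.04% of all genes were called lower. *Lefty2*, a feedback inhibitor of Nodal, was called higher in KO at every day, at 396 to 418 TPM against 153 to 199 TPM at day 0. At day 3 *Lefty1* (1.21) was called higher as well, while 0.521% of all genes were. *Tdgf1* (0.91) and *Nodal* (0.74) were among those that passed the adjusted p in that direction at day 3. At day 1 *Lefty1* (0.84) passed it for a higher level, and *Smad4* (−0.36) and *Acvr1b* (−0.37) were among those that passed it for a lower level. *Foxh1* itself differed at no day between the genotypes past the threshold.

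Of the FoxO regulators, 7 of 7 were tested; *Akt1* rose and *Sgk1* and *Sirt1* fell from day 0 to day 3 in both genotypes. Of 11 FoxO targets, 5 rose and 2 fell in WT and 6 rose and 2 fell in KO, with *Sesn3* and *Irs2* higher and *Klf2* and *Sod2* lower in both. Of 12 *Foxm1* targets of G2 and M phase, 1 (*Nek2*) was called, lower in both genotypes, while 10 passed the adjusted p for a lower level in each. *Foxm1* itself passed the adjusted p in the other direction, at 0.36 (SE 0.09) in WT and 0.34 (SE 0.08) in KO. The shares of all genes called are those given for the Nodal list, and they need the 2-fold change as well. The share of all genes that passed the adjusted p alone over these days is not given here. The count of 10 is therefore a description. None of these 3 lists had a member called between the genotypes at any day. Of the cilia list of *Foxj1*, 5 of the 10 genes found were tested. *Rfx2* and *Tekt1* fell from day 0 to day 3 in both genotypes, and *Rsph1* in KO. *Ccno* was called lower in KO at day 1 (−1.02, adjusted p = 0.0274), while 1.76% of all genes were. The other tested genes of the cilia list were not called between the genotypes at any day.

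The marker lists place the libraries. Of 8 pluripotency markers, 7 fell from day 0 to day 3 in both genotypes, and their sum went from 5288 to 5374 TPM at day 0 to 546 to 560.0 TPM at day 3 in WT and from 5136 to 5601 TPM to 709.9 to 823 TPM in KO. All 8 were expressed in every day 0 library, the lowest, *Prdm14*, at 48.7 TPM. Trophoblast markers rose too, with 3 of 3 tested (*Cdx2*, *Gata3*, *Hand1*) called in both genotypes, and 5 of 6 fibroblast markers were called higher. *Hand1* is also among the mesoderm markers. Of all genes tested, 16.1% in WT and 13.8% in KO were called higher over these days, and 9.68% and 8.04% lower. Of 4 tested neural markers *Nes* rose and *Sox1* fell in both, and of 4 formative epiblast markers 3 fell in both. *Neurog2* stayed at or below 0.307 TPM, and *Lum*, a fibroblast marker, at or below 0.744 TPM.

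The sequence before the start site was read for the genes that RefSeq (GRCm38.p6) gives a promoter window, 28 of the 44, in 33 windows of 250 bases. The GC box GGGCGG, on either strand, was present in 69.7% of these windows and in 32.7% of 32851 windows of all genes, and the median number of CpG was 16 against 6. The forkhead core TGTTTAC, on either strand, was in 3.03% against 3.17%, and a direct repeat of AGGTCA spaced by 5 bases on either strand, a form bound by RA receptors, in 0 against 0.00913%. The windows below, 5′ to 3′ on the gene's strand, belong to genes with contrasting courses, the day 3 genes *Foxa1* and *Foxa2*, the day 0 gene *Foxd3* and the day 1 gene *Foxi3*, and capitals mark GC boxes and forkhead cores. The *Foxa1* stretch, chr12:57546122-57546361, and the *Foxa2* stretch, chr2:148046970-148047219, are on the minus strand, and the *Foxd3* stretch, chr4:99656049-99656298, and the *Foxi3* stretch, chr6:70956356-70956530, on the plus strand. The window shown for *Foxa2*, which has 3, is the farthest upstream, and those of *Foxa1* and *Foxi3* stop where an annotated exon begins.
Foxa1: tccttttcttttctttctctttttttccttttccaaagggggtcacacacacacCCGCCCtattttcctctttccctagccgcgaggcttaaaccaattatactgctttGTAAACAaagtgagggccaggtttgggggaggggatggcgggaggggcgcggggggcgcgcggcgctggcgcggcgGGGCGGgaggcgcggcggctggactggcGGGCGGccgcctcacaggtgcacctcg
Foxa2: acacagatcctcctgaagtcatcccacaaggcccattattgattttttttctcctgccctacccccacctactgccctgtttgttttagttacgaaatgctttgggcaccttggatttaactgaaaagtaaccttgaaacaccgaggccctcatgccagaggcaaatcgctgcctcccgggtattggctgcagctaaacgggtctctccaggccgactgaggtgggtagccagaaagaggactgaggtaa
Foxd3: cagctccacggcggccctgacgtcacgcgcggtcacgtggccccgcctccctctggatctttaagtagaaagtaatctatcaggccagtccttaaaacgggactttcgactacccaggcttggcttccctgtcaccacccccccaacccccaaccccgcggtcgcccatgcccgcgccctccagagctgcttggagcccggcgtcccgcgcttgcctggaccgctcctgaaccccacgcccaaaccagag
Foxi3: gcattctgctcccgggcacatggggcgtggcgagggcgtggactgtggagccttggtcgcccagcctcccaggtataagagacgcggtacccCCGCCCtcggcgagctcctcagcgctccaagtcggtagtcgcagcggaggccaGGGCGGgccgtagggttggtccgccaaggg
The *Foxa1* window held the only forkhead core among the 33, with 3 GC boxes, while the windows shown for *Foxa2* and *Foxd3* held neither motif. The other windows of *Foxa2* held 1 and 2 GC boxes. These matches are a description of letters and say nothing of binding.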

How the data were processed

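RNA of 17 cultures was made into NEBNext Ultra libraries and sequenced on an Illumina NovaSeq. The authors deposited TPM, computed from gene length and read counts; per the labels' processing notes they used HISAT2 2.1.0, StringTie 1.3.6 and the build GRCm38.p6. The counting tool, the strand setting and the annotation release were not given in the sources used here.

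Levels were taken as log2(TPM + 1) and fitted with limma 3.58.1 in R 4.3.3 (variance trend, 6 group means, all 17 libraries, no replicate block). Genes with a TPM of at least 1 in at least 2 libraries (21871 of 54532) were tested, p-values were adjusted over all of them by Benjamini-Hochberg, and a call needed an adjusted p below 0.05 and a 2-fold change. The 12 comparisons were 3 between genotypes, 6 between days and 3 of the difference between responses. Whole reads were recovered from the TPM steps within 0.01 for 95.9% to 96.7% of the genes above 0 in each library, which gives the depths in the report, and were used in an alternative with voom. On simulated data with 200 changed genes of log2 change 2, 95% were recovered for KO against WT at day 3 and 93.5% for day 3 against day 0 in WT.

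All 44 forkhead genes entered the counts, and some genes of the family and lists are not reported here by name. Values in single libraries are given for many of the genes called in at least 1 comparison, and ranges, means or log2 differences alone for others. The genes, role groups, target lists and marker lists were chosen with earlier results of these data known, so none is independent support. Coding sequences came from the GENCODE M21 annotation of GRCm38 and promoter windows from RefSeq, read with Python 3.11.15 and Biopython 1.88. Exons of 13 forkhead genes overlap another gene (*Foxq1* by 3200 bases and *Foxp3* by 2082), and their values are uncertain to that extent. Replicate numbers did not pair the samples. The alternatives were another pseudocount, filter, threshold, scaling, set of libraries or test, a replicate block, and leaving out each library. Leaving out both libraries that stood apart was added after seeing the data.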

Additional observations from a re-analysis of the deposited data

Results flagged for a closer look

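In 5 forkhead genes the test of the difference of responses to RA gave a call between the genotypes (KO minus WT, log2(TPM + 1) scale). From day 0 to day 1, 0.86% of all genes tested were called. From day 0 to day 3 the share was 2.42%, and from day 1 to day 3 it was 2.25%. For *Foxd3* the difference from day 0 to day 1 was 1.21 (SE 0.26, adjusted p = 0.0297), with a fall in both genotypes. For *Foxc2* the difference from day 0 to day 3 was 1.95 (SE 0.49, adjusted p = 0.0324), with a rise in both, and for *Foxe1* it was −1.02 (SE 0.27, adjusted p = 0.0377), a gene at 0 reads in both WT day 0 libraries. These 3 were not called without WT day 0 replicate 1, and other alternatives lost them too. In all, *Foxd3* was lost in 7 of 23 alternatives, *Foxc2* in 13 of 23 and *Foxe1* in 13 of 22. For *Foxi3* the difference from day 1 to day 3 was 2.76 (SE 0.60, adjusted p = 0.0132), and for *Foxk1* it was 1.15 (SE 0.24, adjusted p = 0.00968). The *Foxk1* level fell in WT and rose in KO, but neither the fall nor the rise was called by itself. The *Foxi3* call was lost with a pseudocount of 0.1 (adjusted p = 0.0556). *Foxk1* passed the adjusted p but was just below 2-fold without KO day 3 replicate 2 (1.00) and with equal medians (0.95).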

How the results depend on the processing

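Of 101 calls of single forkhead genes, 79 were kept in every alternative and 22 were lost in at least 1, and none changed direction. The numbers of forkhead genes called depend on the settings as follows, for KO against WT at days 0, 1 and 3 (1, 4 and 3 as reported) and for the difference of responses from day 0 to day 1, day 0 to day 3 and day 1 to day 3 (1, 2 and 2 as reported). With a pseudocount of 0.1, KO against WT gave 2, 1 and 2 at days 0, 1 and 3. *Foxa1*, *Foxa2* and *Foxi3* were lost at day 1, and *Foxa1* and *Foxc2* at day 3. The differences of responses gave 2, 4 and 1 with this pseudocount. With quantile normalization KO against WT gave 1, 3 and 4, with *Foxa1* and *Foxa2* lost at day 1. With the adjusted p alone, KO against WT gave 5, 9 and 5, the differences of responses 2, 4 and 6, day 1 against day 0 gave 19 in WT and 13 in KO, and day 3 against day 1 in KO gave 27. With a 1.5-fold minimum, KO against WT gave 3 at day 0 and 8 at day 1, and the differences of responses 2, 4 and 4. With equal medians, KO against WT gave 0 at day 0 and 1 at day 1, and the difference from day 1 to day 3 gave 1. With the libraries of the comparison only, KO against WT at day 0 gave 0 and the difference from day 0 to day 3 gave 0. That difference also gave 0 without a filter and 1 with a filter at a TPM of 5. With recovered reads and voom, KO against WT at day 0 gave 2, day 1 against day 0 in WT gave 13 and the difference from day 0 to day 1 gave 2. The causes were not tested.

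With a single library left out in turn, the numbers called ranged from 1 to 2 for KO against WT at day 0, 2 to 3 at day 1 (2 without WT day 1 replicate 2, KO day 1 replicate 1 or KO day 1 replicate 3, where *Foxa1* fell just below 2-fold) and 3 to 4 at day 3, and the differences of responses from 0 to 6, 0 to 4 and 1 to 2. The highest, 6 and 4, came without WT day 0 replicate 2, which leaves WT day 0 replicate 1 alone in its group, its spread taken from the other groups. Day 1 against day 0 in WT ranged from 6 to 11 and in KO from 7 to 8, day 3 against day 0 from 18 to 19 and at 21, and day 3 against day 1 from 18 to 20 and 16 to 17. Same-numbered samples correlated by −0.13 to 0.12 in their deviations from the group means, so the numbers do not pair them. With the replicate block the difference from day 0 to day 3 gave 1 (*Foxc2*), and no other number of calls moved. Low counts limit *Foxe1*, *Foxc1* and *Foxb2*, which rest on at most 41 reads, 51 reads and 28 reads.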
